A study of Mus musculus with 12 samples.

Results

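The sine oculis homeobox genes *Six2*, *Six4* and *Six5* and their *Eya* and *Dach* partner genes in the developing mouse forelimb zeugopod, the segment of the radius and ulna, are described here from RNA-Seq of chondrocytes. The members were the rows whose gene symbol was *Six2*, *Six4*, *Six5*, *Eya1*, *Eya2*, *Eya3*, *Eya4*, *Dach1* or *Dach2*, 9 of the 36186 rows of the expression table, with 3 sine oculis, 4 *Eya* and 2 *Dach* genes. They were chosen by name and not by a cut on their values, though with earlier results of these data known. Expression was measured in 12 libraries of E15.5 embryos on a mixed 129/CD-1 background, with tissue taken by laser capture microdissection (LCM). The WT resting, proliferative and hypertrophic compartments gave 3 libraries each. The remaining 3 libraries came from embryos homozygous for frameshift mutations in *Hoxa9*, *Hoxa10*, *Hoxa11*, *Hoxd9*, *Hoxd10* and *Hoxd11*, called *aadd*. The small *aadd* zeugopod was captured whole, without division into compartments, and the labels give it the compartment name resting. They call the WT hypertrophic compartment hyperproliferative. The captured tissue also held some perichondrium, so these bulk values cannot tell a change in the share of a cell type from a change of RNA per cell.

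Sine oculis, Eya and Dach proteins act together in a network first worked out in the fly eye. Sine oculis proteins such as Six2 bind DNA through a homeodomain, Eya proteins are tyrosine phosphatases that join them as co-activators, and Dach proteins join the same complexes as co-repressors. The network is known for its part in muscle, kidney, ear and craniofacial development. *Six2* is best known for keeping nephron progenitors undifferentiated, and it is also expressed in limb mesenchyme around forming tendons and joints. *Six4* acts in muscle precursors, and *Six5* lies beside the *Dmpk* gene.

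Levels are given as NRPKM, the authors' normalized reads per kilobase of exon scaled to library size, which allows genes of different length to be compared. By the median of the 12 libraries *Six5* was the highest at 26.4 NRPKM, followed by *Six2* at 18.3, *Eya3* at 14.8, *Six4* at 11.2 and *Eya4* at 10.5. *Eya2* at 3.57, *Dach1* at 3.01, *Eya1* at 2.37 and *Dach2* at 1.08 formed a lower set. Neighbours in this order overlapped in their ranges across libraries. *Six2* had the widest range of any member, from 2.23 to 92.6 NRPKM or 41.5-fold, and *Eya3* the narrowest, from 13.2 to 17.8 NRPKM or 1.35-fold. The standard deviation of log2 values over the 12 libraries was 1.76 for *Six2* and 0.14 for *Eya3*, against a median of 0.39 over all genes tested.

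**Figure D1:**
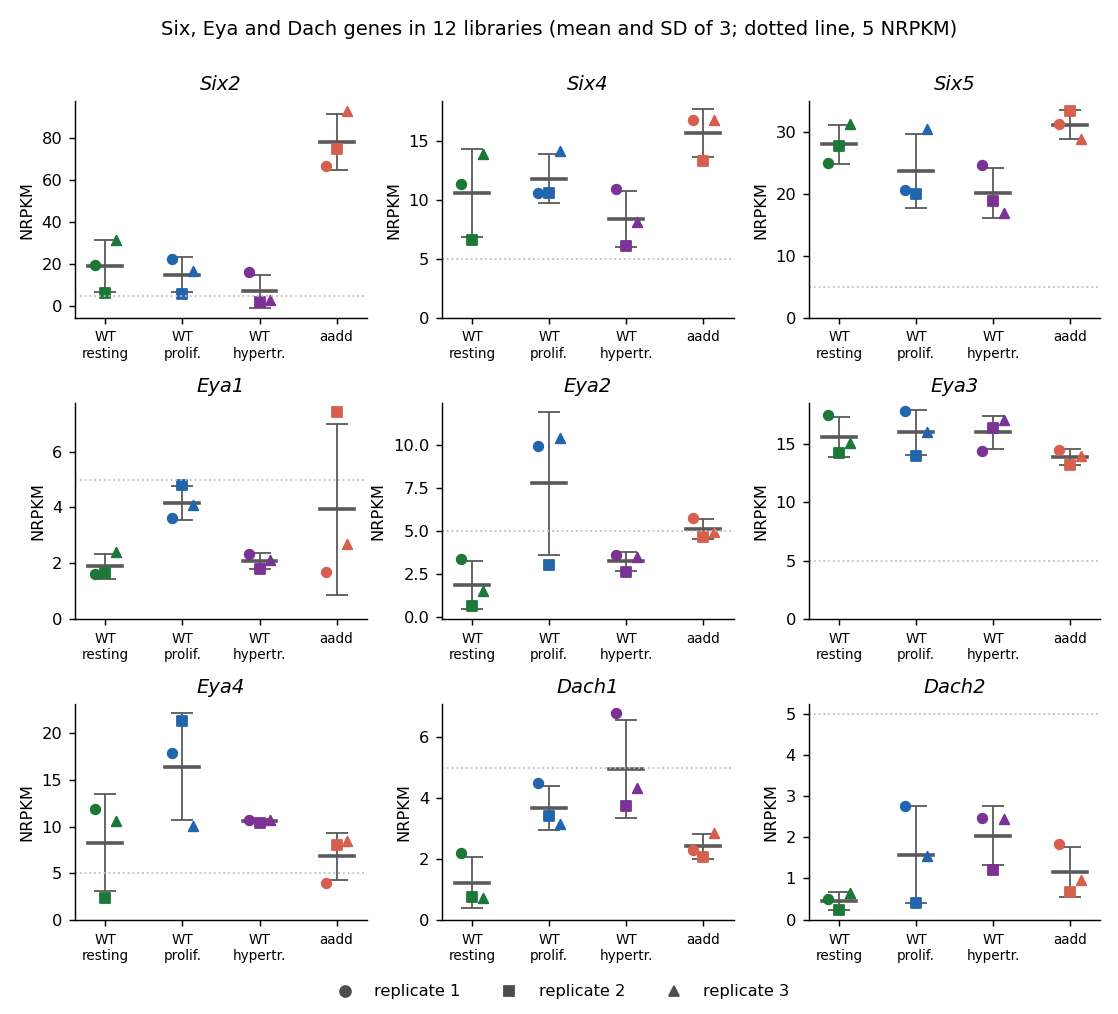
NRPKM of the 9 genes (vertical axes, linear, each panel on its own scale) in the 4 groups, with 1 point for each library, the replicate given by its shape, and the mean and SD of 3 libraries as bars. The *aadd* points of *Six2*, from 66.7 to 92.6, lie above all WT points, which reach 31.4; *Eya3* stays between 13.2 and 17.8, and *Dach2* stays under the dotted line at 5 NRPKM.

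In these values 1 read on a transcript of 1 kb was worth 0.3088 to 0.5296 NRPKM, which implies 1890000 to 3240000 reads per library. These implied depths carry any scaling that the authors applied between libraries. Genes entered the tests with 5 NRPKM or more in 3 or more of the 12 libraries, which left 10936, and 6 of the 9 members passed. *Eya2* passed with exactly 3 libraries, proliferative replicates 1 and 3 and *aadd* replicate 1. *Eya1* and *Dach1* reached 5 NRPKM in 1 library each and *Dach2* in 0, so their tests come from a fit without the filter. Transcripts of the 6 targeted Hox genes were still detected in the *aadd* libraries, between 5.17 and 52.1 NRPKM. Against WT resting 3 were higher in every *aadd* library, 1 (*Hoxa11*) was lower in every one, and 2 overlapped. Over all genes tested 8.08% were higher and 7.34% lower without overlap in this comparison. The 10 chondrocyte marker genes summed to 2331 to 2797 NRPKM in *aadd* and 2518 to 3567 in WT resting.

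Some libraries stood apart within their groups. Hypertrophic replicate 1 had a chondrocyte marker sum of 2748 NRPKM and an osteoclast marker sum of 36.3. In hypertrophic replicates 2 and 3 the chondrocyte sums were 626 and 902 and the osteoclast sums 1238 and 894. Replicates 2 and 3 also had endothelial sums of 270 and 185, macrophage sums of 280 and 228 and erythroid sums of 450 and 481. The same 3 sums in replicate 1 were 19.2, 22.6 and 128. *Xist* and 4 Y-linked genes placed replicate 2 of each WT compartment and *aadd* replicates 1 and 2 as male, with *Xist* up to 2.79 NRPKM, and the other 7 libraries as female, with *Xist* of at least 191. The member log2 fold changes printed for comparisons with the hypertrophic group are also given without its replicate 1. Leaving it out keeps the libraries with the lower chondrocyte sums and the higher osteoclast, endothelial, macrophage and erythroid sums. *Six2* is also given within each sex.

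The *Six2* and *Six5* promoters are shown because these genes, both GC-rich at their start, gave the most and among the least variable levels of the family. RefSeq entries of 250 bases before to 50 after a gene's start (GRCm38.p6) matched 7 of the 9 members, and none was matched for *Eya1* or *Eya2*. *Six2* lies at chr17:85684268-85688254 on the minus strand with 2 exons, and its printed promoter is chr17:85688205-85688504, minus strand. *Six5* lies at chr7:19094544-19098345 on the plus strand with 3 exons, and its promoter is chr7:19094294-19094593, plus strand. Capitals mark TAAT, the core letters bound by many homeodomain proteins, on either strand. The letters TTTAT and TTTAC, core letters of posterior Hox sites, were also searched on both strands and neither was present in these windows.
Six2: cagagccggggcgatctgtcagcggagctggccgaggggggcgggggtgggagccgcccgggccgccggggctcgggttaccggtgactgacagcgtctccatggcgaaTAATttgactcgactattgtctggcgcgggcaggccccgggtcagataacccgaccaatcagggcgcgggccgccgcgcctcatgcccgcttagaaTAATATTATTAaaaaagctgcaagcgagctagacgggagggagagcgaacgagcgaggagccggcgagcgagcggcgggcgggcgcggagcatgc
Six5: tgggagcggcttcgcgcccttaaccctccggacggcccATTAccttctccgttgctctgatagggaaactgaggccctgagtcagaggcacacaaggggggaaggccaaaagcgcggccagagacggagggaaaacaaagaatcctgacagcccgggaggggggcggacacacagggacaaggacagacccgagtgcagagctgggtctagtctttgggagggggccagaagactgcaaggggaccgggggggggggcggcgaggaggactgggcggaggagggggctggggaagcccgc
The *Six2* window held TAAT 4 times, at -141, -45, -41 and -38 from the start, the last 3 in a run where the matches at -41 and -38 share a base, and the *Six5* window held it 1 time, at -212. Of 32851 promoters of this length 58.0% held TAAT, 40% TTTAT and 31.5% TTTAC. *Six2* had 67.3% GC with 37 CpG and *Six5* 66% GC with 17 CpG, against medians of 52.7% GC and 7 CpG over all promoters. Such matches are a description of the letters and not of binding. The other members lie at chr12:73100259-73113245 (*Six4*), chr1:14168958-14310199 (*Eya1*), chr2:165595028-165771631 (*Eya2*), chr4:132639046-132724763 (*Eya3*), chr10:23104168-23350786 (*Eya4*), chr14:97786847-98169543 (*Dach1*) and chrX:113297510-113836386 (*Dach2*) in mm10, and no member overlaps another gene of the expression table.

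*Six2* rose strongly in *aadd*. Its NRPKM was 66.7, 74.6 and 92.6 in *aadd*, against 19.7, 6.52 and 31.4 in WT resting. It was 22.3, 5.95 and 16.8 in WT proliferative and 16.2, 2.23 and 2.87 in WT hypertrophic. Every *aadd* library was above all 9 WT libraries, as was true of 2.82% of the genes tested, and the lowest *aadd* library was 2.13 times the highest WT library. The *aadd* mean of 78.0 ± 13.3 NRPKM (SD, n = 3) was 5.66 times the mean of the 9 WT libraries. Within each WT compartment replicate 2 was the lowest library, and the *aadd* libraries differed less from each other on the log2 scale (SD 0.24) than the WT libraries of any compartment did (SD 0.99 to 1.53).

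Against WT resting, the comparison the study used for the mutant, *Six2* had a log2 fold change of 2.27 (SE 0.54), a 4.82-fold rise with a 95% interval of 2.0 to 11.6. It met the criteria there, the study's limits of a *P* of at most 0.05 and an FC of 1.5 or more. Here the *P* limit was applied to limma's unadjusted *P*. The study worked in GeneSpring and, for *aadd* against WT, also compared pooled reads by the Audic Claverie method. It reported that the pooled comparison detected more differences than its moderated one. Its text does not state which of them gave its *Six2* call. After adjustment over all genes limma gave an adjusted *P* of 0.25 (0.15 to 0.68 over the alternatives). The rise met the criteria in all 14 alternative settings. The largest shift came without WT resting replicate 2, the lowest resting library, where the log2 fold change was 1.63. The study singled out *Six2* on these same samples, so its direction here is not independent evidence. By immunostaining of E15.5 forelimbs the study also reported more Six2 protein in *aadd*. The staining was described as strongest between the cartilage elements and as present in the ulna and radius too.

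*Six2* was also higher in *aadd* than in the other WT compartments. The log2 fold change was 2.55 (SE 0.48, limma adjusted *P* = 0.044, 0.012 to 0.16 over the alternatives) against WT proliferative, 5.86-fold with an interval of 2.68 to 12.8. It was 4.0 (SE 0.72, limma adjusted *P* = 0.025, 0.00016 to 0.1 over the alternatives) against WT hypertrophic, and 4.88 without hypertrophic replicate 1. These comparisons share the *aadd* libraries. Over the 4 groups *Six2* was the one member that passed limma's moderated F test, with adjusted *P* = 0.031, as did 13.8% of genes. That adjusted *P* was 0.082 without hypertrophic replicate 2, 0.097 without hypertrophic replicate 3, and 0.077, 0.078 and 0.094 without *aadd* replicates 1, 2 and 3, so the F test call was lost in each. It was 0.0031 without hypertrophic replicate 1.

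The sexes were not balanced between the groups, and *Six2* was lowest in the male library of each WT compartment. Among male libraries *Six2* was 66.7 and 74.6 NRPKM in *aadd* and 2.23 to 6.52 in the 3 WT libraries. Among female libraries it was 92.6 in the *aadd* library and 2.87 to 31.4 in the 6 WT libraries. The *aadd* level was above WT within each sex. A part for sex in the spread among WT libraries was not tested.

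Between the WT compartments no *Six2* difference met the criteria. The WT means fell in order from resting at 19.2 ± 12.4 NRPKM through proliferative at 15.0 ± 8.32 to hypertrophic at 7.09 ± 7.87 (SD, n = 3), and the 3 groups overlapped. The log2 fold change of hypertrophic against resting was -1.73 (SE 0.89, limma adjusted *P* = 0.27), and it met the criteria at -2.61 without hypertrophic replicate 1 and at -2.37 without WT resting replicate 2. Against proliferative it was -1.45 (SE 0.86, limma adjusted *P* = 0.38), and without hypertrophic replicate 1 -2.33, again meeting the criteria. Proliferative against resting gave -0.28 (SE 0.70, limma adjusted *P* = 0.87).

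*Six4* followed *Six2* on a smaller scale. It was 16.8, 13.3 and 16.8 NRPKM in *aadd*, against 11.4, 6.58 and 13.9 in WT resting. It was 10.6, 10.6 and 14.2 in WT proliferative and 10.9, 6.09 and 8.17 in WT hypertrophic. The *aadd* libraries overlapped with WT resting and proliferative and lay above every hypertrophic library. Against WT resting the log2 fold change was 0.61 (SE 0.29, limma adjusted *P* = 0.59), with a 95% interval from -0.08 to 1.31, and did not meet the criteria, although it did at 0.84 without WT resting replicate 3. Against WT hypertrophic it was 0.93 (SE 0.26, limma adjusted *P* = 0.083), a 1.9-fold difference just under the FC of 2 required there, which reached 1.13 and met the criteria without hypertrophic replicate 1, and 1.04 without *aadd* replicate 2. Against WT proliferative it was 0.41 (SE 0.20, limma adjusted *P* = 0.34). Between WT compartments *Six4* met the criteria in none. Hypertrophic cartilage differed from proliferative by -0.51 (-0.72 without hypertrophic replicate 1) and from resting by -0.31 (-0.52 without it), and proliferative from resting by 0.20 (-0.11 without WT resting replicate 2).

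*Six5* varied little. It was 31.3, 33.4 and 28.8 NRPKM in *aadd* and 25.0, 27.7 and 31.3 in WT resting, and the groups overlapped. It was 20.7, 20 and 30.5 in WT proliferative and 24.7, 18.8 and 17.0 in WT hypertrophic. Its log2 fold change against WT resting was 0.16 (SE 0.16, limma adjusted *P* = 0.8), with an interval of -0.23 to 0.55. All *aadd* libraries were above all hypertrophic ones, by 0.64 (SE 0.20, limma adjusted *P* = 0.11) on the log2 scale, 1.56-fold and below the required FC, and by 0.80 without hypertrophic replicate 1. Hypertrophic libraries were all below resting ones, by -0.49 (SE 0.21, limma adjusted *P* = 0.2) and by -0.64 without hypertrophic replicate 1, short of the FC of 2 in both. *Six5* met the criteria in no comparison.

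*Eya2*, a co-activator gene, was low in resting cartilage. It was 3.37, 0.640 and 1.53 NRPKM in WT resting, against 9.97, 3.01 and 10.4 in WT proliferative. It was 3.62, 2.61 and 3.52 in WT hypertrophic and 5.77, 4.68 and 4.94 in *aadd*. The lowest of these values, in resting replicate 2, stands for about 4.55 reads, so that its counting error is large. The *aadd* libraries lay above every resting and hypertrophic library and within the span of the proliferative ones.

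In WT proliferative *Eya2* rose over WT resting with a log2 fold change of 2.10 (SE 0.69, limma adjusted *P* = 0.23), 4.27-fold with an interval of 1.36 to 13.4, although replicate 2 of the proliferative group overlapped with the resting group. It was called in this comparison, where 5.53% of all genes were, but it had passed the filter through the libraries in which it is high. With the filter taken over the 6 libraries compared it was not tested, and 0 members were called. The call was lost without WT resting replicate 2 (1.53), proliferative replicate 1 (1.82) or proliferative replicate 3 (1.79). With the replicate number as a block the limma adjusted *P* was 0.083. In *aadd* the rise over WT resting was 1.69 (SE 0.51, limma adjusted *P* = 0.35), 3.23-fold with an interval of 1.39 to 7.5, and it met the criteria with any library left out. Against WT proliferative, *aadd* differed by -0.40 (SE 0.47, limma adjusted *P* = 0.7), with an interval of -1.52 to 0.71. In WT hypertrophic *Eya2* lay between the other WT compartments. It differed by 1.04 (SE 0.54, limma adjusted *P* = 0.28) from resting and by -1.06 (SE 0.50, limma adjusted *P* = 0.3) from proliferative, and met the criteria at 1.59 without WT resting replicate 1 and at -1.63 without proliferative replicate 2. Without hypertrophic replicate 1 the differences were 0.96 and -1.14 and did not meet them. Its gene span overlaps the opposite-strand lincRNA *Gm28163*, whose reads cannot be told apart where strand was not used. The spans of *Eya1*, *Eya4*, *Dach1* and *Dach2* also overlap annotated genes that are absent from the expression table. Whether any of these overlaps reaches a counted exon was not tested.

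*Eya4*, another co-activator gene, was highest in proliferative cartilage. It was 17.8, 21.3 and 10.1 NRPKM in WT proliferative, against 3.95, 8.07 and 8.5 in *aadd*. It was 11.9, 2.33 and 10.6 in WT resting and 10.7, 10.4 and 10.7 in WT hypertrophic. The *aadd* libraries were below all proliferative and all hypertrophic libraries, while the resting group held both lower and higher values. *Eya4* fell in *aadd* against WT proliferative by 1.26 on the log2 scale (SE 0.39, limma adjusted *P* = 0.15), and without *aadd* replicate 1 the difference was -0.91 and missed the FC of 2. Against WT resting the difference was -0.04 (SE 0.64, limma adjusted *P* = 0.99), with an interval from -1.55 to 1.47 that a spread of this size leaves wide, and without *aadd* replicate 1 it was 0.31. Proliferative was above resting by 1.22 (SE 0.65, limma adjusted *P* = 0.39) and *aadd* below hypertrophic by -0.70 (SE 0.31, limma adjusted *P* = 0.23, also -0.70 without hypertrophic replicate 1), neither of which met the criteria.

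*Eya3* was level across the study. It was 14.5, 13.2 and 14 NRPKM in *aadd* and 17.5, 14.2 and 15.1 in WT resting. It was 17.8, 14 and 16 in WT proliferative and 14.4, 16.4 and 17.1 in WT hypertrophic. Its log2 difference between *aadd* and WT resting was -0.16 (SE 0.16, limma adjusted *P* = 0.8), and the interval of -0.54 to 0.21 bounds a fall at 0.69-fold and a rise at 1.16-fold. Over the 6 comparisons its log2 fold change lay between -0.20 and 0.04, and without hypertrophic replicate 1 the 3 that involve this group lay between -0.27 and 0.11, and none met the criteria.

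*Eya1* was below the filter, at 1.62, 1.64 and 2.40 NRPKM in WT resting and 3.61, 4.81 and 4.10 in WT proliferative. It was 2.33, 1.79 and 2.12 in WT hypertrophic and 1.67, 7.43 and 2.70 in *aadd*. Every proliferative library was above every library of the other WT compartments, and *aadd* replicate 2 was the highest of all 12. Among genes that passed the filter, 24% did not overlap between proliferative and resting and 24.2% between hypertrophic and proliferative. Without a filter, proliferative cartilage differed from resting by 1.12 (SE 0.21, limma adjusted *P* = 0.19), 2.17-fold with an interval of 1.48 to 3.19, and met the criteria, as did 6.48% of the 23070 rows tested. The fall from proliferative to hypertrophic was -0.97 (SE 0.18, limma adjusted *P* = 0.22), just short of the FC of 2, which it met at -1.05 without hypertrophic replicate 1 and at -1.06 without proliferative replicate 1. *Eya1* in *aadd* differed from WT resting by 0.77 (SE 0.59, limma adjusted *P* = 0.77), with *aadd* replicate 2 setting most of that size, since without it the difference was 0.19.

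The *Dach* co-repressor genes were lowest in resting cartilage. *Dach1* was 2.19, 0.776 and 0.716 NRPKM in WT resting and 4.49, 3.41 and 3.15 in WT proliferative. It was 6.78, 3.75 and 4.35 in WT hypertrophic and 2.29, 2.09 and 2.87 in *aadd*. Every proliferative and hypertrophic library was above every resting and every *aadd* library, and the *aadd* values overlapped with the highest resting one. Among genes that passed the filter, 24% and 32% did not overlap between these 2 groups and resting, and 25.6% and 30.9% between them and *aadd*. Without a filter, the rise from resting was 1.67 (SE 0.46, limma adjusted *P* = 0.3) in proliferative and 2.06 (SE 0.50, limma adjusted *P* = 0.14) in hypertrophic cartilage, and both met the criteria. Without hypertrophic replicate 1 the latter was 1.81 and still met them. The former lost its call without WT resting replicate 2 (1.45) or proliferative replicate 1 (1.52). Among the rows tested without a filter 11% met the criteria in the latter comparison.

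In *aadd*, *Dach1* differed from WT resting by 1.08 (SE 0.46, limma adjusted *P* = 0.68), which did not meet the criteria, but without WT resting replicate 1 it was 1.56 and did. Against WT proliferative and hypertrophic it was lower by 0.58 and 0.97, with log2 fold changes of -0.58 (SE 0.21, limma adjusted *P* = 0.36) and -0.97 (SE 0.27, limma adjusted *P* = 0.18), each short of the FC of 2. The latter was -0.73 without hypertrophic replicate 1, and it met the criteria at -1.15 and -1.04 without hypertrophic replicates 2 and 3 and at -1.10 without *aadd* replicate 3. Hypertrophic and proliferative cartilage differed by 0.39 (SE 0.29, limma adjusted *P* = 0.59), and by 0.15 without hypertrophic replicate 1.

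*Dach2* was the lowest member, at 0.504, 0.221 and 0.649 NRPKM in WT resting and 2.76, 0.404 and 1.54 in WT proliferative. It was 2.46, 1.21 and 2.43 in WT hypertrophic and 1.83, 0.670 and 0.954 in *aadd*. The resting values stand for about 5.24 to 16.4 reads. All hypertrophic libraries were above all resting ones, by 1.96 (SE 0.45, limma adjusted *P* = 0.13) on the log2 scale, which met the criteria without a filter, as did 1.79 without hypertrophic replicate 1. Among genes that passed the filter, 32% did not overlap in this comparison. The proliferative group overlapped with resting, with a difference of 1.34 (SE 0.75, limma adjusted *P* = 0.5) that met the criteria once the replicate number was a block. *Dach2* in *aadd* differed from WT resting by 1.14 (SE 0.49, limma adjusted *P* = 0.68) and did not meet the criteria, and the lowest *aadd* library, 0.670, was barely above the highest resting one, 0.649.

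Read over the 6 members that passed the filter, between 0 and 2 were called in a comparison. In *aadd* against WT resting 2 of 6 were called, *Six2* and *Eya2*, both higher, where 6.56% of all genes were. With the filter taken over the 6 libraries compared *Eya2* was not tested and 1, *Six2*, was called. *Six2* and *Eya2* also did not overlap between the groups, as 15.4% of genes did not. Against WT proliferative 2 were called and did not overlap, *Six2* higher and *Eya4* lower, beside 8.02% of genes called and 25.6% without overlap. Against WT hypertrophic 1, *Six2*, was called beside 13.3% of genes, and 5 of the 6 did not overlap beside 30.9%, all but *Eya3*. Between proliferative and resting cartilage 0 of the 6 were free of overlap, beside 24% of genes. Between hypertrophic and proliferative cartilage 0 were called and 0 were free of overlap, beside 9.67% and 24.2% of genes. There limma's adjusted *P* was under 0.05 for 0 of the 10936 genes, with 2115 at an unadjusted *P* under 0.05. Between hypertrophic and resting cartilage 0 were called beside 13% of genes, and 1, *Six5*, did not overlap beside 32%. The median log2 fold change of the 6 was 0.38 in *aadd* against WT resting and 0.01 over all genes.

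**Figure D2:**
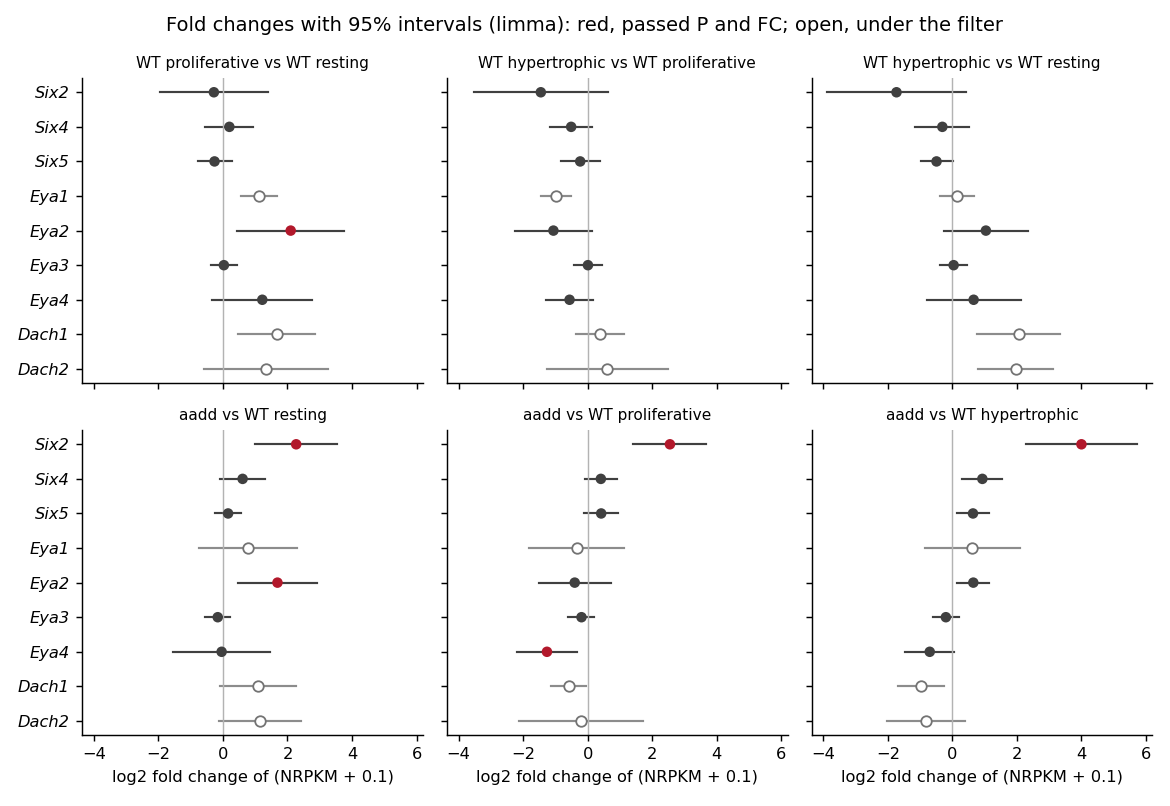
Log2 fold change of (NRPKM + 0.1) with its 95% interval from limma for each gene (rows) in the 6 comparisons (panels). Filled points passed the filter, red ones also met the criteria on *P* and FC; unfilled points are the 3 genes under the filter, from the fit without it, whether or not they met the criteria. *Six2* is red in each lower panel, at 2.27, 2.55 and 4.0, and in no upper panel.

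The members rose and fell in groups across libraries. Over the 12 libraries the Pearson correlation of log2 values was 0.88 for *Six2* with *Six4* and 0.80 for *Six2* with *Six5*, and within the 9 WT libraries 0.83 and 0.71. *Dach1* and *Dach2* had 0.72, and *Eya2* had 0.69 with *Dach2* and 0.65 with *Dach1*. These points share groups, compartments and, by replicate number, sex, so the values are descriptive.

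The genes most like *Six2* over the 12 libraries, members left out, were *Aff2* with a Pearson correlation of 0.965, *Gm13111* with 0.954, *Bmpr1b* with 0.946, *Eml5* with 0.942 and *Prdm16* with 0.934. *Bmpr1b*, a BMP receptor of early cartilage, had a mean of 27.7 NRPKM in *aadd* and 7.74 in WT resting, and *Prdm16*, a transcriptional regulator of brown fat, 16.4 and 8.83. *Aff2*, a nuclear protein gene on the X chromosome, had 28.3 and 15.3. In the 9 WT libraries alone *Gm13111* and *Aff2* were again the first of the list, with *Epha7*, *Stk32b* and *Tspyl4* after them.

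**Figure D3:**
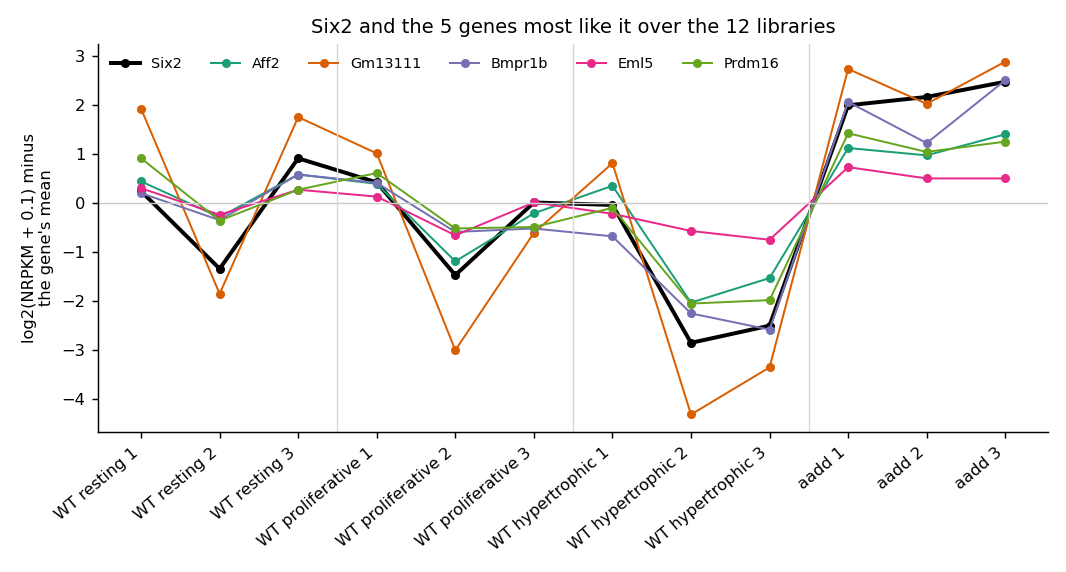
Log2(NRPKM + 0.1) minus each gene's mean (vertical axis) in the 12 libraries (horizontal axis, grouped by vertical lines) for *Six2* (black) and the 5 genes with the highest correlation to it. All 6 lines are above their mean in the 3 *aadd* libraries and below it in hypertrophic replicates 2 and 3 and in replicate 2 of the other WT compartments.

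Genes that work with the network were read from lists. Of 14 Pax genes and nephric-type partners of *Six2*, 6 passed the filter, *Osr1*, *Osr2*, *Sall1*, *Meox1*, *Meox2* and *Tbx18*, and none was a Pax gene. The *aadd* mean was 0 for *Pax2*, 0.105 NRPKM for *Wt1* and 0.154 for *Gdnf*, and among the Pax genes *Pax9* was highest at 4.08. Of the 6, 4 rose in *aadd* over WT resting while 0 fell, where 3.78% of all genes were called higher and 2.78% lower. The median log2 fold change of the 6 was 1.73 against 0.01 over all genes. The study named *Osr1*, *Sall1* and *Tbx18* on these samples, so their direction is not independent evidence. *Osr1*, which marks early nephric and joint mesenchyme, rose 4.04-fold (limma adjusted *P* = 0.099), from 9.21 to 19.0 NRPKM in WT resting to 41.3 to 54.1 in *aadd*. *Sall1*, a zinc finger gene that acts with *Six2* in nephron progenitors, rose 9.63-fold (limma adjusted *P* = 0.13), from 0.298 to 1.90 NRPKM to 7.04 to 9.61. It passed the filter through the *aadd* libraries alone, with WT libraries up to 2.25 NRPKM, so the filter favoured its call as higher. *Tbx18*, a T-box gene of mesenchyme, rose 2.72-fold (limma adjusted *P* = 0.13), and *Meox1*, a somite homeobox gene, rose 4.8-fold (limma adjusted *P* = 0.46) with overlap of the groups. *Osr2* had 1.39-fold and did not meet the criteria.

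All 14 genes of the list of Groucho family genes and Dach co-repressors passed the filter, and 3 rose and 1 fell in *aadd* against WT resting, beside 3.78% of all genes called higher and 2.78% lower. *Tle4* rose 1.92-fold (limma adjusted *P* = 0.33), *Aes* 2.09-fold (limma adjusted *P* = 0.38) and *Tle1* 1.57-fold (limma adjusted *P* = 0.38). *Tle3* fell to 0.422-fold (limma adjusted *P* = 0.25), from 7.62 to 14.6 NRPKM in WT resting to 3.74 to 5.66 in *aadd*. These genes belong to the Groucho family, and the groups of each of the 4 did not overlap, as those of 15.4% of all genes did not. Of the 7 Eya co-activator and H2AX pathway genes, all passed the filter and 0 were called in any of the 6 comparisons. Of 8 myogenic factors 1, *Mef2c*, which also acts in chondrocyte hypertrophy, passed the filter, and it was not called in *aadd* against WT resting. Its mean was 10.1 NRPKM in WT resting, 56.3 in proliferative, 85.3 in hypertrophic and 12.7 in *aadd*, which is nearly all of the list's sum, while no other gene of the list went over 4.01 NRPKM in any library. The summed level was 7.7 to 12.9 NRPKM in WT resting, 53.2 to 64.3 in proliferative, 67.6 to 115 in hypertrophic and 13.1 to 15.7 in *aadd*.

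Some markers of joint tissue were higher in *aadd* together with *Six2*, tendon and perichondrium markers were so for 1 gene each, and their part in the rise of *Six2* was not tested. The study named *Gdf5* and *Dcx* on these samples. Of 7 joint genes that passed the filter, 4 rose in *aadd* over WT resting (*Gdf5*, *Gdf6*, *Dcx* and *Barx1*), beside 3.78% of all genes called higher. *Gdf6* passed the filter through the *aadd* libraries alone, with WT libraries up to 3.43 NRPKM, so the filter favoured its call as higher. *Prg4* at 0.347-fold, *Cd44* at 0.504-fold and *Erg* at 1.11-fold did not meet the criteria. The sum of all 8 was 123 to 138 NRPKM in *aadd*, 68.1 to 122 in resting, 25.2 to 50.2 in proliferative and 48.1 to 71.2 in hypertrophic. Of 6 tendon genes 1, *Mkx*, rose, and the sum of 8 was 320 to 571 in *aadd* and 185 to 439 in resting. Of 10 perichondrium and connective tissue genes 1, *Twist1*, rose, with sums of 517 to 1211 in *aadd* and 552 to 924 in resting. The sum was 950 to 2322 in WT hypertrophic, where *Col1a1* and *Col1a2* had means of 757 and 344 NRPKM, against 241 and 119 in resting. *Prrx1* of the same list had 47.6 in hypertrophic and 64.6 in resting, so the sum does not follow all its genes. The skeletal muscle sum was 13.5 to 46.6 in *aadd* and 10.3 to 13.2 in resting, and 2 of its 10 genes passed the filter, of which *Mylpf* rose 3.52-fold (limma adjusted *P* = 0.48) with overlap of the groups. No gene of these 4 lists was at 0 in all libraries of a group. Of the blood and vessel lists, erythroid genes (7 of 8 matched) summed to 91.3 to 216 in *aadd* and 63.6 to 85.9 in resting, with *Hbb-y* rising 3.78-fold (limma adjusted *P* = 0.49) with overlap of the groups, and endothelial, macrophage and osteoclast sums overlapped between them. The sums of tendon and perichondrium genes overlapped between *aadd* and WT resting and those of joint and muscle genes did not.

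**Figure D4:**
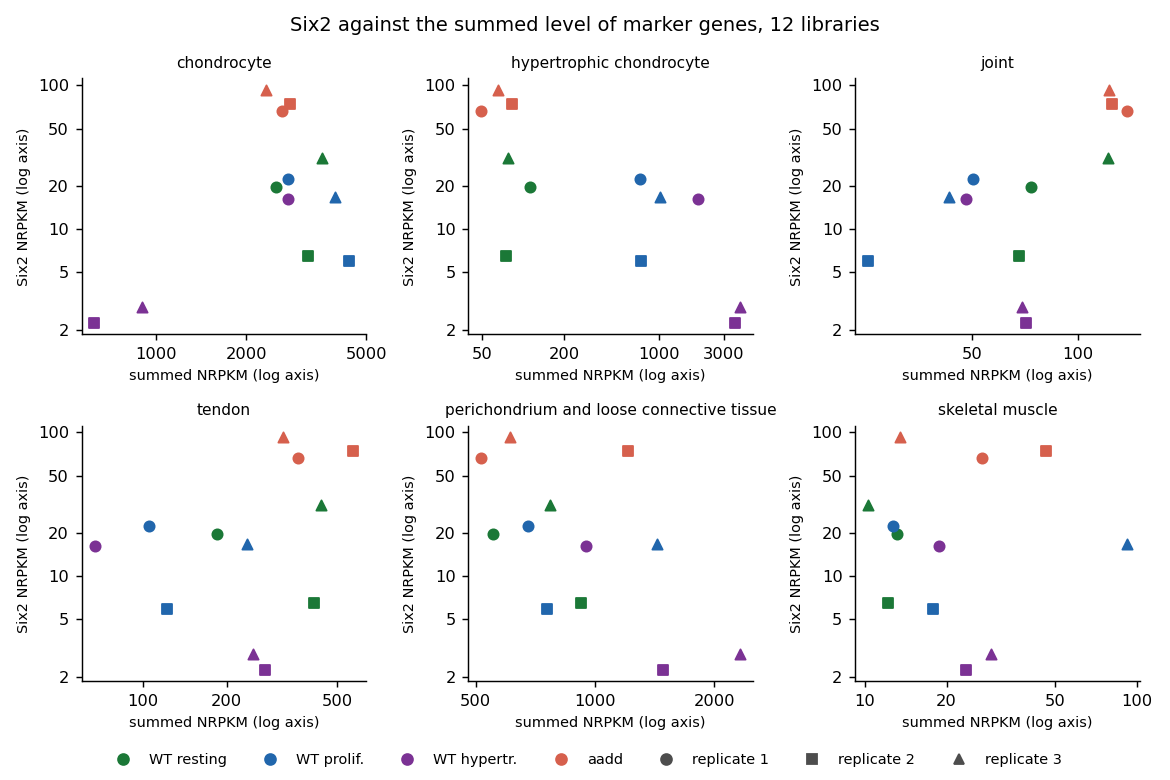
*Six2* NRPKM (vertical log axis) against the summed NRPKM of 6 marker lists (horizontal log axes) in the 12 libraries, coloured by group with the replicate given by shape. The *aadd* points lie above all WT points in each panel. The joint sum, 123 to 138 in *aadd* and 122 in WT resting replicate 3, mixes genes that differ in direction. *Dcx* was at least 20.2 NRPKM in *aadd* and at most 8.88 in WT resting, while *Prg4* reached 3.38 and 34.4. The part of joint tissue in the level of *Six2* was not tested.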

How the data were processed

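RNA-Seq of 12 LCM libraries, 3 per group, from 20 ng of total RNA each was read from 1 table. The deposited values are RPKM, normalized further between libraries by the authors (NRPKM), linear and before any filter on expression. Per the labels, RNA was amplified with the NOvation RNA-Seq system of NuGen and tagmented with Nextera. The submitters' processing notes name TopHat and mm10, and the study's methods name GeneSpring and the removal of duplicate and multiply aligned reads. How libraries were scaled and whether strand was used are not given in the sources used here. Depth was implied from the value of 1 read in 1702 single-exon genes, carries any scaling between libraries and covers counting error only.

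Values were fitted as log2(NRPKM + 0.1), on which scale all fold changes stand, with limma 3.58.1 in R 4.3.3 over the 10936 genes at 5 NRPKM or more in 3 or more libraries, the 6 libraries of the 2 groups per fit and no covariate. A gene was called at an unadjusted *P* no higher than 0.05 and an FC of 2 or more (1.5 for *aadd* against WT resting), and *P* adjusted by Benjamini-Hochberg over all genes. The 4 groups were compared with limma's F test. Replicates are separate samples, and whether each is 1 embryo is not stated. An exact permutation test of 3 against 3 cannot go below 0.1. Tables were made with pandas 2.3.3 and numpy 2.4.6 in Python 3.11.15, and plots with matplotlib 3.10.9. The fit was tested on simulated data. Positions are from GENCODE M21 and promoters from RefSeq (GRCm38.p6).

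Same-numbered libraries deviated together between WT resting and proliferative (*r* over genes of 0.281, 0.179 and 0.198), so the block is given there where it changes a call. In no other comparison were all 3 values over 0.1. All 9 members are named in every comparison. The 5 genes closest to *Six2* by correlation and, from each list, at most 5 genes called in *aadd* against WT resting are also named. The members and lists were chosen with earlier results of these data known. Alternatives were the replicate block, a variance trend, a joint fit of all 12 libraries, quantile normalization, median-of-ratios scaling, a filter over the 6 libraries compared, no filter, a pseudocount of 1 and each library left out. The block and the left-out libraries without a filter, for *Eya1*, *Dach1* and *Dach2*, were added after seeing the data.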

Additional observations from a re-analysis of the deposited data

How the results depend on the processing

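Counts of members called changed as follows. Without a filter, in which all 9 members are tested, 3 were called in WT proliferative against resting, 2 in hypertrophic against resting and 0 in the F test. With the filter over the libraries compared, which removes *Eya2*, 0 were called in proliferative against resting and 1 in *aadd* against resting. With all 12 libraries in one fit 1 was called in hypertrophic against resting. With the replicate block 2 were called in hypertrophic against proliferative (*Six2* and *Eya2*) and 2 in the F test; *Six4* in *aadd* against resting (0.61) also met the criteria, though the numbers did not pair these samples. Leaving out 1 library gave 0 to 1 called in proliferative against resting, hypertrophic against proliferative and hypertrophic against resting, 1 to 2 in *aadd* against proliferative and against hypertrophic, and 0 to 2 in the F test. In *aadd* against resting 2 to 3 were.

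Some differences changed sign, and not all of these were near 0. The main log2 fold change was 0.66 for *Eya4* in hypertrophic against resting. Without a filter it was 0.61 for *Dach2* in hypertrophic against proliferative and -0.34 for *Eya1* in *aadd* against proliferative. *Eya3* in hypertrophic against proliferative was -0.02 with median-of-ratios scaling and -0.09 with quantile normalization. With 1 library left out the log2 fold change ran from -0.92 to 0.28 for *Six2* and -0.11 to 0.42 for *Six4* in proliferative against resting. For *Eya3* it ran from -0.05 to 0.12 there, -0.08 to 0.09 in hypertrophic against proliferative and -0.03 to 0.12 in hypertrophic against resting. For *Eya4* it ran from -0.08 to 1.07 in hypertrophic against resting and -0.78 to 0.37 in *aadd* against resting. Without a filter it ran from -0.09 to 1.16 (*Dach2*, hypertrophic against proliferative), -0.90 to 0.35 (*Dach2*) and -0.93 to 0.11 (*Eya1*) in *aadd* against proliferative, with *Dach2* at 0.1 there without *aadd* replicate 2. The cause of these shifts was not tested. Quantile normalization kept 3 of the 5 genes closest to *Six2*. Depth limits *Eya1*, *Eya2*, *Dach1* and *Dach2*, and 3 libraries a group limit all.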
